A study of Mus musculus with 8 samples.

Results

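Integrins are cell surface receptors of an alpha and a beta subunit that bind extracellular matrix proteins outside the cell and, through a talin and kindlin plaque, the actin cytoskeleton inside it. At these contacts, the focal adhesions, the kinases FAK (encoded by Ptk2) and ILK and adaptors such as paxillin pass adhesion signals on to ERK and to small GTPases of the cytoskeleton. Fibulin-5 (Fbln5), a secreted matrix protein of elastic fibres, carries an RGD motif through which integrins recognise it, and αvβ3, αvβ5 and α9β1 are among its described receptors. The genes described here are 41 integrin subunit and focal adhesion genes, chosen by symbol and not by their signal, out of 22911 genes named on the array. Each gene is given by its probe with the highest mean signal.

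Islet RNA was measured from mice aged 11 weeks, in 4 arrays of control mice (Fbln5-floxed) and 4 of βFbln5KO mice, which are floxed mice that also carry Ins1-Cre. Both groups thus carry the floxed Fbln5 allele, and only the βFbln5KO group carries Cre, from the mouse insulin 1 promoter. Islet cells that do not use this promoter keep Fbln5. Each array holds the RNA of 150 islets, with endocrine, endothelial, immune and other cells mixed, so that fewer cells of a type and less RNA per cell cannot be told apart. The labels call the arrays of a group biological replicates without saying which mouse each extraction came from, and the p-values measure the spread between these arrays.

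Signals are given as log2 of the processed signal relative to the 75th percentile of the same array (709 to 1012 for control, 910 to 1055 for βFbln5KO). The share of spots well above background was 56.6% to 58.8% in control and 52.6% to 56.6% in βFbln5KO. Among probes not well above background on any array, the median log2 signal was −7.06 to −6.85 in control and −6.78 to −6.29 in βFbln5KO. Dim probes were thus higher on the βFbln5KO arrays, and the 5710 genes that were not well above background on a single array, called dim or below detection here, had a median difference of 0.48 on the log2 scale. Fbln5, the targeted gene, had a log2 signal of −1.72 ± 0.31 in control and −2.22 ± 0.59 in βFbln5KO (SD, n = 4 each), a difference of −0.50 (95% interval −1.15 to 0.15, limma adjusted p = 0.342). One βFbln5KO array, replicate 4, at −1.37, lay inside the control range, and without it the difference was −0.78 (adjusted p = 0.0227, in a fit where 11544 of 56603 probes passed 0.05, beside 6 of 56605 with all arrays). The endocrine hormones Ins1, Ins2, Iapp, Gcg and Sst were well above background on every array. The 8 arrays share 1 slide, on which each genotype fills a row of its own, so that row and genotype cannot be told apart.

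None of the 41 genes passed an adjusted p of 0.05, against 0.0131% of all genes (3 of 22911). At an unadjusted p under 0.05, 2 of the 41 were lower in βFbln5KO, the talin gene Tln2 and the kindlin gene Fermt2, where 2.68% of all genes were. Another 2 were higher, the integrin subunit Itgb6 and the kindlin Fermt1, where 16.8% of all genes were. Neither higher gene was detected above background on an array, and at background level the signals of the whole βFbln5KO group were higher. In the same 2 genes every βFbln5KO array lay above every control array, as in 16% of all genes. Every βFbln5KO array lay below every control array for Tln2 and for the parvin gene Parvb, as in 1.82% of all genes. The split of calls over all probes differed between settings: 11730 probes were higher and 2246 lower as processed here, 301 higher and 3222 lower after a background correction with an offset, and 929 higher and 2424 lower after quantile normalization. For the 41 genes neither of these settings left a higher gene. The lower genes were Tln2 alone after the background correction with an offset and Tln2 with Fermt2 after quantile normalization.

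Restricted to genes whose mean signal over the 8 arrays was above the detection limit of every array (a log2 signal of −4.19), 35 of the 41 and 14314 of all genes were left. Among these, no integrin or adhesion gene was higher at an unadjusted p under 0.05, where 1.01% of the genes were, and 2 were lower, Tln2 and Fermt2, where 3.15% were. None had all βFbln5KO arrays above all control arrays, where 0.706% did, and 1, Tln2, had all of them below, where 2.14% did. The median difference of the 35 genes was −0.02 on the log2 scale, beside −0.01 for the 14314 genes. Over the full 41 genes the median was −0.02, with 14 values above 0 and 27 below.

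All 8 arrays detected 33 of the 41 genes well above background. Another 4 (Itga2, Itga4, Itga8 and Parvb) were so on only some arrays, and 4 (Itga5, Itgb6, Itgb8 and Fermt1) on none. Spread between replicates was small for the 33 genes, with a median SD of 0.09 on the log2 scale in control and 0.11 in βFbln5KO. The 95% interval of the difference reached a median of 0.18 to either side, which is 1.14-fold. For 30 of these 33 genes (90.9%) the whole interval lay within a 1.5-fold difference either way, beside 85.4% of the 13650 genes well above background on every array. The exceptions were Itga1, Itgb4 and Tln2, whose intervals reached a signal 1.69-fold, 2.57-fold and 1.70-fold lower in βFbln5KO. An interval within these limits bounds the mRNA difference and does not show that the groups were alike. It also says nothing of protein, phosphorylation or the active state of an integrin.

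**Figure D1:**
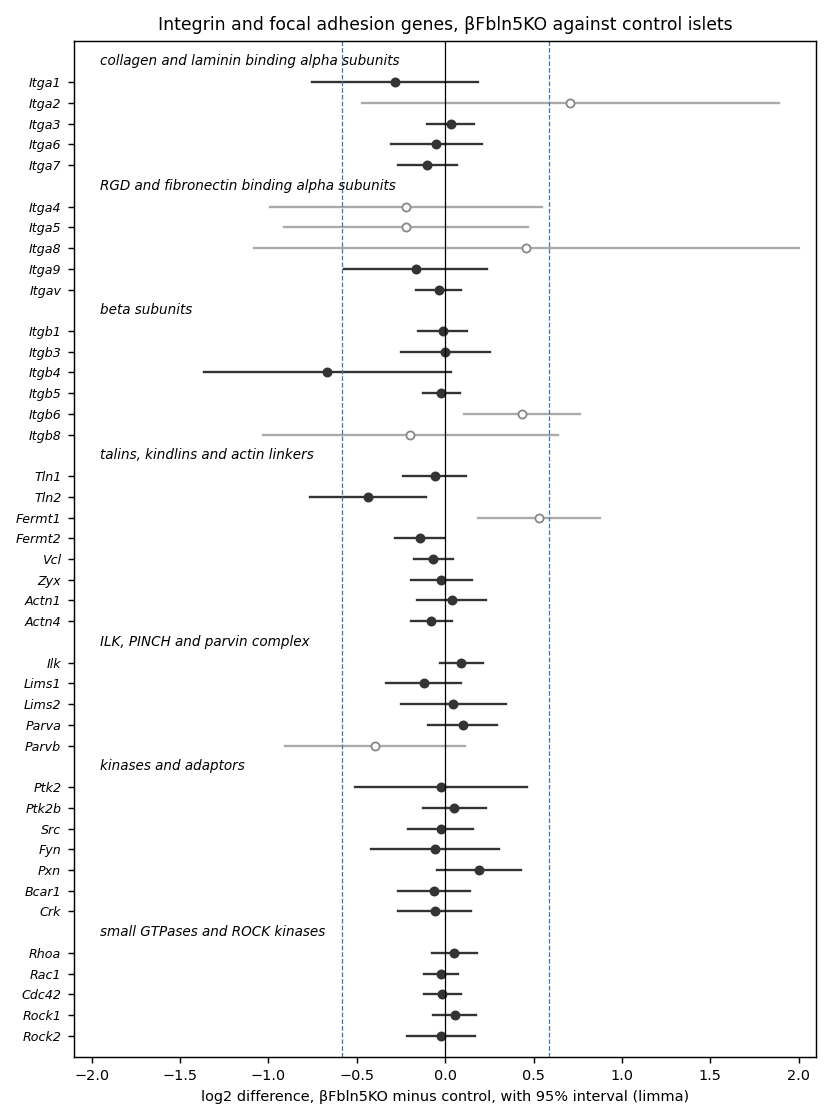
The plot shows, for each of the 41 genes grouped by role, the log2 difference of βFbln5KO minus control (points) with its 95% interval from limma (lines); filled points are genes well above background on all 8 arrays, open points the others, and the dashed lines mark a 1.5-fold difference. The intervals of 30 of the 33 filled genes lie between the dashed lines, and those of the filled genes Itga1, Itgb4 and Tln2 and of the 8 open genes reach past a dashed line.

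The described receptors of Fbln5 were examined first. Itgav encodes the αv subunit, the partner of several beta subunits in RGD receptors. Its log2 signals were 3.59, 3.59, 3.76 and 3.56 on the control arrays and 3.57, 3.64, 3.58 and 3.57 on the βFbln5KO arrays. Apart from control replicate 3, all arrays lay within a narrow band, and the groups overlapped. The difference was −0.04 (95% interval −0.16 to 0.09, adjusted p = 0.776). The β3 subunit gene Itgb3 had log2 signals of −2.39, −2.08, −2.18 and −2.08 in control and −2.29, −2.13, −2.14 and −2.18 in βFbln5KO. All βFbln5KO values lay within the control range, and the difference was 0.00 (−0.25 to 0.25, adjusted p = 0.997). Its other probe stayed below detection on every array. The β5 subunit gene Itgb5 had log2 signals of 2.38, 2.27, 2.31 and 2.26 in control and 2.24, 2.36, 2.28 and 2.26 in βFbln5KO. The groups overlapped here too, with a difference of −0.02 (−0.13 to 0.09, adjusted p = 0.859).

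Itga9 encodes the α9 subunit, which pairs with β1. Its log2 signals were −2.61, −2.92, −2.86 and −2.37 in control and −2.78, −2.75, −2.71 and −3.19 in βFbln5KO. Replicate 4 of the βFbln5KO group lay below all other arrays, while the other 3 lay inside the control range. The difference was −0.17 (−0.57 to 0.24, adjusted p = 0.662). Itgb1 encodes β1, the common partner of most matrix-binding alpha subunits and the integrin subunit that the study stained in pancreas sections. Its log2 signals were 3.83, 3.88, 3.93 and 3.93 in control and 3.76, 3.84, 3.96 and 3.96 in βFbln5KO. The βFbln5KO arrays surrounded the control arrays on both sides, and the difference was −0.01 (−0.15 to 0.12, adjusted p = 0.929). A separate Itgb1 probe differed by −0.06 (−0.20 to 0.07). An Itgb1 difference beyond 1.11-fold lower or 1.09-fold higher lies outside the interval of the first probe.

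**Figure D2:**
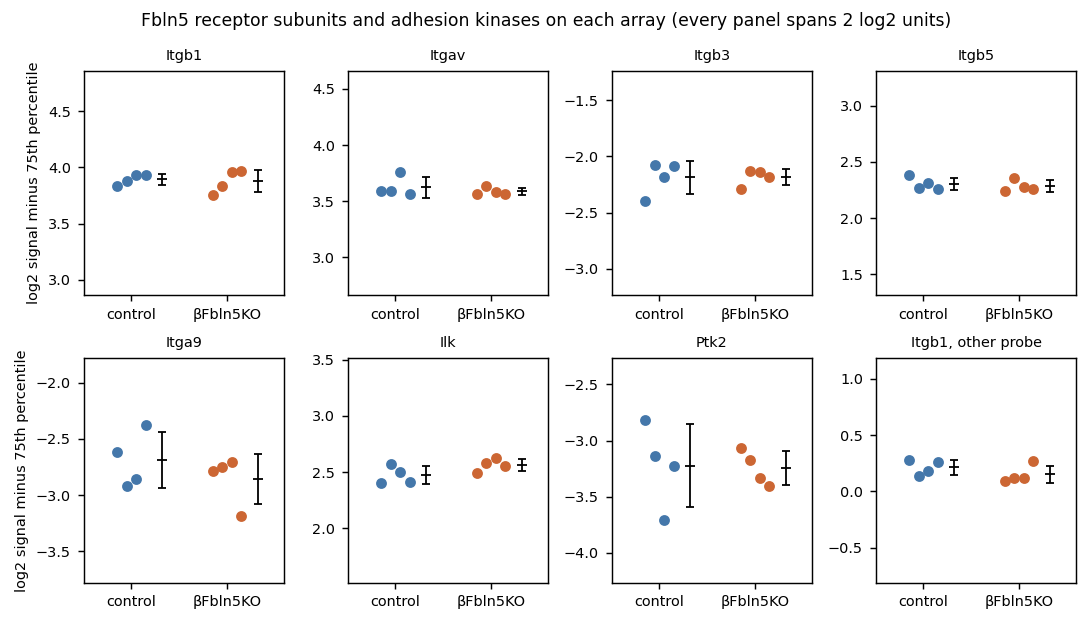
Each panel shows the log2 signal, relative to the 75th percentile of the array, on the 4 control (blue) and 4 βFbln5KO (orange) arrays, ordered by replicate number from left to right, with the mean and SD beside them; all panels span 2 log2 units. The groups overlap in all 8 panels, and Itga9 and Ptk2 have the widest spread.

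The other alpha subunits with RGD or fibronectin binding were near the detection limit. Itga5, which encodes the fibronectin receptor subunit α5, stayed below detection on every array. Itga4, known from leukocyte adhesion, was well above background on all 4 control arrays and on 2 of the 4 βFbln5KO arrays, and differed by −0.22 (−0.99 to 0.55). For Itga8, the receptor subunit of nephronectin in kidney development, the same counts of arrays applied. Its control signals were −4.47 to −3.89, and the βFbln5KO signals were −4.68, −1.40, −4.61 and −4.10. The difference of 0.46 (−1.08 to 2.00) thus rested on βFbln5KO replicate 2, and without that array it was −0.31.

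Among the alpha subunits for collagen and laminin, Itga6 and Itga3, which encode laminin receptor subunits, were well above background on every array. Itga6 differed by −0.05 (−0.31 to 0.21) and Itga3 by 0.03 (−0.10 to 0.17). The muscle laminin receptor subunit gene Itga7 differed by −0.10 (−0.27 to 0.07), and Itga1, a collagen receptor subunit gene, by −0.28 (−0.75 to 0.19). None of the 4 passed an unadjusted p of 0.05. Itga2, the other collagen receptor subunit gene, was well above background only on βFbln5KO replicate 4, at −4.41, and no fold is given for it.

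Itgb4 encodes the β4 subunit, which joins α6 in the hemidesmosomes of epithelia. It had the largest difference among the 33 genes well above background on all arrays. Its log2 signals were −1.80, −1.62, −0.42 and −1.26 in control and −2.08, −2.19, −2.13 and −1.37 in βFbln5KO. The βFbln5KO replicates 1, 2 and 3 lay below all control arrays, and replicate 4 lay inside the control range. The difference was −0.67 (−1.36 to 0.03, adjusted p = 0.227, exact two-sided permutation p = 0.0857). Its unadjusted p was below 0.05 without control replicate 1, without control replicate 2 and without βFbln5KO replicate 4, and the difference ranged from −0.86 to −0.38 when 1 array was left out. The lower end in size, −0.38, came without control replicate 3.

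Markers of exocrine acinar cells, which surround islets in the pancreas, were read beside Itgb4. All 10 of 10 acinar markers were well above background on every array, and their median difference was −0.84 on the log2 scale, with 2 of the 10 lower at an unadjusted p under 0.05, where 2.68% of all genes were. Their mean log2 signal was 6.87, 6.62, 8.14 and 7.83 on the control arrays and 6.81, 5.85, 5.94 and 7.46 on the βFbln5KO arrays. In each group the array with the highest acinar level also had the highest Itgb4 signal (control replicate 3 and βFbln5KO replicate 4), and the 2 arrays with the lowest acinar level, βFbln5KO replicates 2 and 3, had the lowest Itgb4 signals. The order was not the same throughout: control replicates 1 and 2 and βFbln5KO replicate 1 had like acinar levels (6.87, 6.62 and 6.81), and both control arrays had the higher Itgb4 signal (−1.80 and −1.62, beside −2.08). The mean of the 6 ductal markers was −1.84 to −1.26 in control and −2.01 to −1.22 in βFbln5KO, so that these ranges overlapped. Of the 6, 4 were well above background on every array. The highest βFbln5KO mean, on replicate 1, included a Sox9 signal of −1.22, beside −5.66 to −4.58 on the other βFbln5KO arrays. The part of either cell type in the Itgb4 difference was not tested.

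**Figure D3:**
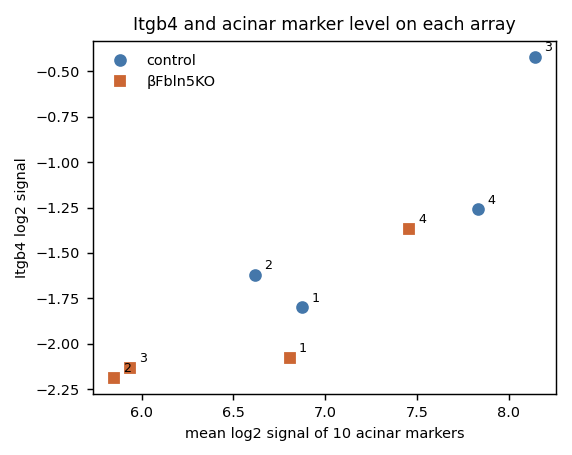
The plot sets the Itgb4 log2 signal (vertical) against the mean log2 signal of 10 acinar markers (horizontal) for each array, labelled by replicate number (control, circles; βFbln5KO, squares). Control replicate 3 is highest on both axes, and βFbln5KO replicates 2 and 3 are lowest on both.

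The epithelial subunit genes Itgb6 and Itgb8, partners of αv in the activation of TGF-β, stayed below detection on every array, and no fold is given for them. Itgb6 signals were −7.07 to −6.63 in control and −6.56 to −6.25 in βFbln5KO, at the level of the other dim probes in each group. The groups did not overlap, as for 16% of all genes.

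Talins and kindlins bind the tails of beta subunits and switch integrins to the active state. Tln2, a talin gene, had log2 signals of −0.55, −0.70, −0.75 and −0.77 in control and −0.83, −1.10, −1.02 and −1.56 in βFbln5KO. All βFbln5KO arrays lay below all control arrays, and replicate 4 was the lowest. The difference was −0.44 (−0.77 to −0.11), or 1.36-fold lower, with an unadjusted limma p of 0.0146, an adjusted p of 0.0882 and an exact two-sided permutation p of 0.0286, the smallest that 4 against 4 arrays allow. When 1 array was left out the difference ranged from −0.54 to −0.30, and the unadjusted p from 0.00449 to 0.0400. A separate Tln2 probe, also well above background on every array, had signals of −3.43, −3.61, −3.48 and −3.52 in control and −3.31, −3.90, −3.99 and −3.41 in βFbln5KO. On that probe 2 of the βFbln5KO arrays lay above all control arrays and the other 2 below them. Its difference was −0.14 (−0.62 to 0.34, adjusted p = 0.776), and with the mean of both probes the Tln2 difference was −0.29 at an unadjusted p of 0.0546. The talin gene Tln1 differed by −0.06 (−0.24 to 0.12).

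Fermt2 encodes kindlin-2, the kindlin of most adherent cells. Its log2 signals were 2.44, 2.31, 2.56 and 2.54 in control and 2.33, 2.30, 2.29 and 2.36 in βFbln5KO. The groups overlapped through control replicate 2, while the other 3 control arrays lay above all βFbln5KO arrays. The difference was −0.14 (−0.28 to −0.01), or 1.11-fold lower, with an unadjusted limma p of 0.0420, an adjusted p of 0.180 and an exact two-sided permutation p of 0.0857. It kept an unadjusted p under 0.05 in 2 of 8 fits with 1 array left out (control replicate 2 or βFbln5KO replicate 4). Fermt1, which encodes the kindlin of epithelia, stayed below detection on every array, with signals of −7.13 to −6.90 in control and −6.79 to −6.26 in βFbln5KO. The groups did not overlap (unadjusted p = 0.00699, adjusted p = 0.0728), and no fold is given.

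**Figure D4:**
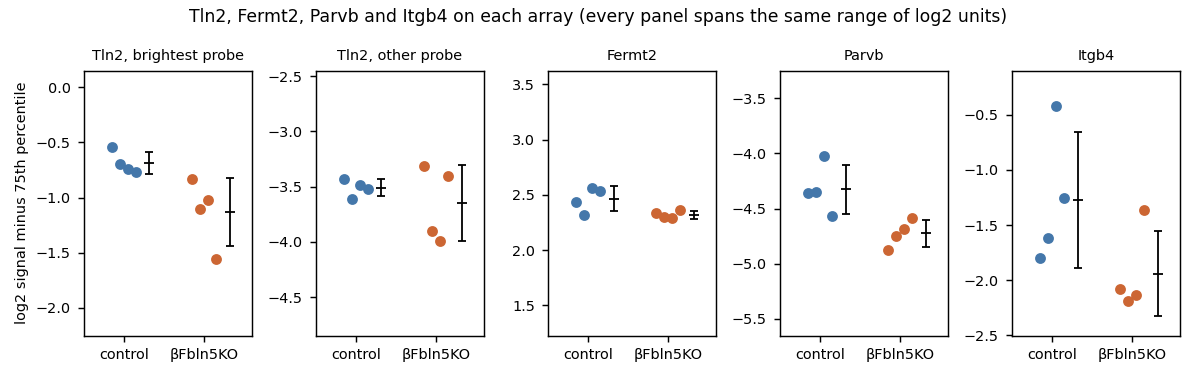
Log2 signals on the 4 control (blue) and 4 βFbln5KO (orange) arrays, ordered by replicate number, with mean and SD; all panels span the same range of log2 units. The groups do not overlap for the brightest Tln2 probe and for Parvb, and they overlap for the other Tln2 probe, for Fermt2 and for Itgb4.

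The actin linkers differed little. Vinculin (Vcl), which strengthens the talin to actin link, differed by −0.07 (−0.18 to 0.04), and the LIM protein gene Zyx by −0.02 (−0.19 to 0.15). The actin crosslinking actinins differed by 0.04 (−0.16 to 0.23) for Actn1 and by −0.08 (−0.19 to 0.04) for Actn4. All 4 were well above background on every array, and none passed an unadjusted p of 0.05.

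Promoters were read to see what these genes share beyond their function. RefSeq promoter sequences (GRCm38.p6, 250 bases before to 50 after the start) were matched for 29 of the 41 genes. Their median number of CG dinucleotides was 24, beside 8 over all 27025 genes of that table. The 21 matched genes well above background on every array had a median of 27, beside 21 for the 10915 such genes of the array, and the 4 genes dim on every array had a median of 12.5 (5 to 13), beside 3 for 4478 dim genes. CG counts were thus higher in detected genes than in dim ones both in this group and over the array. The CArG box, known as the site of the actin-regulated factor SRF, was searched on both strands and was found in the promoters of 3 of the 29 genes (10.3%) and of 1.81% of all promoters of the table. Of the 3 genes, Fermt2 and Vcl are actin-linked adhesion genes and Itgb6 was dim. They are shown with the motif in capitals, to set the promoter of the lower gene Fermt2 beside the others. The motif starts at −204, −50 and −227 from the start site that the promoter table uses, in the order given. Itgb6 has 2 promoter entries there, and the motif was found in 1 of them. That stretch lies inside the span of the gene.
Fermt2, chr14:45530245-45530284, minus strand: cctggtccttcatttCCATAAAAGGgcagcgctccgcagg
Itgb6, chr2:60673719-60673758, minus strand: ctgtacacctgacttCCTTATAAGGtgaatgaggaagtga
Vcl, chr14:20929156-20929195, plus strand: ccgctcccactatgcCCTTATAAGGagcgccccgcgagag
The match is a description of these letters, and binding was not measured.

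ILK, PINCH (Lims1 and Lims2) and parvin form a complex that sits on the tails of beta subunits. ILK was among the proteins that the study measured by immunoblot in an insulinoma cell line. In the islets Ilk had log2 signals of 2.40, 2.57, 2.50 and 2.41 in control and 2.49, 2.58, 2.63 and 2.55 in βFbln5KO. The groups overlapped, with 2 control arrays below all βFbln5KO arrays. The difference was 0.09 (−0.03 to 0.21, adjusted p = 0.357). The PINCH genes differed by −0.12 (−0.33 to 0.09) for Lims1 and by 0.05 (−0.25 to 0.34) for Lims2, and the widely expressed parvin Parva by 0.10 (−0.10 to 0.30).

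Parvb, the β-parvin gene, was near the detection limit. Its log2 signals were −4.36, −4.35, −4.03 and −4.56 in control, all well above background, and −4.88, −4.75, −4.68 and −4.59 in βFbln5KO, none of them well above background. The groups did not overlap, though replicate 4 of each group lay close to the other. The fitted difference was −0.40 (−0.91 to 0.11, adjusted p = 0.335, exact two-sided permutation p = 0.0286). The βFbln5KO arrays had the higher detection limits (−4.70 to −4.19, beside −5.01 to −4.79 in control), and against those limits the signal was at least 1.01-fold lower. A separate Parvb probe was dim on every array, and no difference is given for it.

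FAK was also measured as protein in that cell line, as its phosphorylated form. Its gene Ptk2 had log2 signals of −2.82, −3.14, −3.71 and −3.22 in control and −3.07, −3.17, −3.34 and −3.41 in βFbln5KO. All βFbln5KO values lay inside the control range, and the difference of −0.02 had a wide interval (−0.51 to 0.46, adjusted p = 0.970). The related kinase gene Ptk2b differed by 0.05 (−0.12 to 0.23). A separate Ptk2b probe had signals of −2.29, −3.07, −2.46 and −2.45 in control and −3.20, −2.94, −2.84 and −3.21 in βFbln5KO. There control replicates 1, 3 and 4 lay above all βFbln5KO arrays. The difference was −0.48 (−0.93 to −0.03, limma, unadjusted p = 0.0377, adjusted p = 0.167). The probes of Ptk2b thus gave values on opposite sides of 0.

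The Src family kinases Src and Fyn differed by −0.03 (−0.21 to 0.16) and −0.06 (−0.42 to 0.30). Paxillin (Pxn), the adaptor that docks FAK, differed by 0.19 (−0.05 to 0.43), the largest value above 0 among the 33 genes, and its unadjusted p was under 0.05 only without βFbln5KO replicate 3. The docking proteins p130Cas (Bcar1) and Crk differed by −0.06 (−0.27 to 0.14) and −0.06 (−0.27 to 0.15). A separate Bcar1 probe differed by 0.69 (−0.002 to 1.37, adjusted p = 0.204). All 7 kinases and adaptors had an interval within 1.5-fold on the brightest probe.

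The small GTPases RhoA, Rac1 and Cdc42 and the ROCK kinases, which set actomyosin tension at adhesions, had the narrowest intervals of the 7 role groups, with a median of 0.12 on the log2 scale to either side. Rhoa differed by 0.05 (−0.07 to 0.18), Rac1 by −0.02 (−0.12 to 0.08) and Cdc42 by −0.02 (−0.12 to 0.09). Rock1 differed by 0.05 (−0.07 to 0.18) and Rock2 by −0.02 (−0.21 to 0.17). A separate Rock1 probe had signals of 1.32 to 1.54 in control and 0.89 to 1.38 in βFbln5KO. The groups overlapped through a single βFbln5KO array, replicate 2. The difference on that probe was −0.25 (−0.49 to −0.02), with an adjusted limma p of 0.167 and an unadjusted one of 0.0378. A further Rock1 probe differed by 0.02 (−0.11 to 0.15).

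Over the 41 genes the array holds 69 probes, and 24 genes have more than 1. Of the 46 probes well above background on every array, those of Ptk2b and Rock1 just given were the only ones besides the brightest probes to have an unadjusted p under 0.05, both lower. The array carries different probes of a gene at different places of its transcripts, and which transcript each reads was not examined.

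Genes around the adhesion machinery were read from 4 further lists, and none of their genes passed an adjusted p of 0.05. The other integrin subunits, mainly of leukocytes and platelets, were largely dim, with 4 of 12 well above background on every array. The 2 with an unadjusted p under 0.05, Itga2b and Itgb2l, were higher, as 16.8% of all genes were, and stayed below detection on every array. The median of the 12 was 0.06 on the log2 scale. Of 30 other scaffold and regulator genes, 26 were well above background on every array, and the list had a median of 0.01. Itgb1bp1 encodes ICAP-1, which binds the β1 tail and counters talin and kindlin there. It had a log2 signal of 1.22 ± 0.11 in control and 1.42 ± 0.04 in βFbln5KO, with every βFbln5KO array above every control array, and differed by 0.20 (0.06 to 0.34, adjusted p = 0.0734). Its unadjusted p was 0.0925 after the background correction with an offset. Git2, the gene of a paxillin-binding regulator of ARF GTPases, differed by −0.33 (−0.62 to −0.05, adjusted p = 0.129) on its brightest probe and by −0.11 with the mean of its probes.

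All 13 genes of the ERK arm downstream of integrins were well above background on every array, with a median of −0.02 on the log2 scale. Of 11 RGD ligands of integrins, Fbln5 among them, 9 were well above background on every array, and none passed an unadjusted p of 0.05. Their median was −0.20 on the log2 scale, with nephronectin (Npnt), a ligand of α8β1, at −0.45 (−0.92 to 0.02) and fibronectin (Fn1) at 0.04 (−0.97 to 1.05).

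Markers of other cells that use these genes gave the following levels. The median difference was −0.002 on the log2 scale for 8 endothelial, −0.11 for 9 mesenchymal and −0.04 for 7 macrophage markers, and none of these genes passed an unadjusted p of 0.05. The mean level of the endothelial list was 0.68 to 0.84 in control and 0.68 to 0.83 in βFbln5KO. The beta cell markers had a median of −0.10, with mean levels of 6.01 to 6.11 in control and 5.94 to 6.03 in βFbln5KO. In these lists no group stood apart from the other by level, and the part of cell composition in the values of single adhesion genes was not tested.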

How the data were processed

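Islet RNA of 4 control and 4 βFbln5KO samples was labelled with Cy3 and hybridised to one-colour Agilent mouse arrays on 1 slide. Per the labels and the methods, the authors scanned the slide and extracted, with Feature Extraction 11.0.1.1 and default parameters, a processed signal for each spot, an intensity corrected for background and spatial trend within the array but not normalised between arrays, along with flags of detection. A table deposited with the arrays covers 35553 probes and holds a ratio: 99.8% of its values equal the processed signal over a constant of the array within 0.1%, and the column medians lie between 0.388 and 0.417. The table is on a linear scale, not centred on 1, and it served as an alternative.

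For 59305 spots other than controls, log2 of the processed signal minus the 75th percentile of its array was taken, without spots marked as outliers (0.356%), and replicate spots were averaged to 56605 probes. RefSeq accessions gave 32994 probes 1 of 22911 gene names (GRCm38.p6), and the other 23611 entered the fit unnamed. No spot was saturated, and the number of arrays limits the precision. The 2 groups were compared on all probes with limma 3.58.1 (lmFit, eBayes with trend; R 4.3.3), p-values were adjusted by Benjamini-Hochberg across these probes and read at 0.05, and exact permutation tests (two-sided) served for single values. The fit was tested on simulated data. Intervals are 95% intervals of the fit. A gene is given by its probe with the highest mean over the 8 arrays, and no fold is given where both groups are dim. For such genes the closing section lists fitted log2 values only where their sign turned between settings.

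All 41 genes are named. Values on every array are given for Itgb1, Ilk and Ptk2, for the subunits of described Fbln5 receptors, and for detected genes with an unadjusted p under 0.05 or without overlap. Those of Itgb4 and Itga8 and of separate probes were added after their values were seen. Genes of the 4 further lists are named at an unadjusted p under 0.05, and Npnt and Fn1 were chosen after their values were seen. Some genes that this rule would name are not reported here. The genes and lists were chosen with earlier results of these data known. Alternatives covered background correction, normalization, filters on dim probes, the variance trend, outlier spots, averaging the probes of a gene, the deposited table, the t-test of the methods, a replicate block and leaving out each array. Plots were made in matplotlib 3.10.9 (Python 3.11.15).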

Additional observations from a re-analysis of the deposited data

Results flagged for a closer look

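In 4 of 82 groups tested (41 genes in each genotype), 1 array lay far from the other 3 of its group relative to their range, and chance flags about 1 in 20 groups. The log2 signal of Itga9 was −3.19 on βFbln5KO replicate 4, below the other βFbln5KO arrays at −2.78 to −2.71. That of Itgav was 3.76 on control replicate 3, above the other control arrays at 3.56 to 3.59. Itgb4 was at −1.37 on βFbln5KO replicate 4, above the other βFbln5KO arrays at −2.19 to −2.08. Fyn was at −2.75 on βFbln5KO replicate 4, above the other βFbln5KO arrays at −3.11 to −3.07. The same βFbln5KO replicate 4 accounts for 3 of the 4 values.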

How the results depend on the processing

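The median of the 41 genes stayed between −0.05 and −0.01 under every alternative run for it. With normexp (offset of 50) 0 of the 41 genes were higher at an unadjusted p under 0.05, 1 was lower, 0 had all βFbln5KO arrays above control, and 0 genes of the further lists were higher. Quantile normalization gave 0 higher and 0 above, the filter of 4 arrays well above background (36 genes) 0 higher and 0 above with 1 gene of the further lists higher, and the common floor 0 higher, 0 above and 1 below. In the deposited table, which was analysed for 35 of the genes and not for Tln2, 0 were higher, 0 lower, 0 above and 1 below. Over its 35553 probes, 516 were higher and 2020 lower. With the mean of a gene's probes 1 was lower, beside 747 of 22911 genes, and 1 below. Without the variance trend 1 gene, Fermt1, passed an adjusted p of 0.05 (0.0498), where 6578 of all probes did. The methods' t-test gave 2 higher and 2 lower genes (Tln2 and Parvb), beside 10942 higher and 2233 lower of 56605 probes. After adjustment it left 0 of the 41 genes, beside 87 probes. Dim genes that are left out or floored account for the lost higher genes under the filter and the floor, and for the other settings the cause was not tested.

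Leaving out 1 array gave 0 to 2 genes past an adjusted p of 0.05, 2 to 3 higher, 1 to 3 lower, 2 above and 2 to 5 below. Over all probes of these fits, 10933 to 13282 were higher and 1697 to 2930 lower at an unadjusted p under 0.05. For the alternatives, shares of all probes above or below were not computed. The 2 adjusted calls, Itgb6 and Fermt1, both dim, came without βFbln5KO replicate 4, where 11544 of 56603 probes passed, beside 6 of 56605 with all arrays. Only Tln2 was lower without control replicate 3 or 4 or βFbln5KO replicate 1, 2 or 3, and 5 genes lay below without βFbln5KO replicate 4.

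Deviations of arrays with the same replicate number correlated at 0.20, 0.30, −0.22 and −0.02. Those with different numbers correlated at −0.29 (control 1 with βFbln5KO 4) to 0.35 (control 3 with βFbln5KO 4). These few values cannot settle whether the numbers pair the arrays. With replicate number as a block 0 genes passed an adjusted p of 0.05, 2 were higher and 3 lower (Itgb4, Tln2 and Fermt2), beside 10107 higher and 2105 lower probes over the array.

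Some differences turned sign; those of the dim genes Itgb6 and Itgb8 are fitted values of signals at background and no measured folds. Under normexp Itga2 was at −0.0020, Itgb1 at 0.014, Itgb6 at −0.17, Tln1 at 0.018, Zyx at 0.031 and Rac1 at 0.0084. Under quantile normalization Itgb1 was at 0.013 and Ptk2 at 0.0040, and under the floor Itga4 at 0.0083. With the mean of probes Itga3 was at −0.030, Ptk2b at −0.21, Bcar1 at 0.31, Rock1 at −0.059 and Rock2 at 0.012. Without 1 array the ranges were Itga3 −0.0074 to 0.061, Itga6 −0.14 to 0.033, Itga4 −0.43 to 0.0079, Itga8 −0.31 to 0.79, Itgav −0.057 to 0.0091, Itgb1 −0.043 to 0.026, Itgb3 −0.069 to 0.037, Itgb5 −0.045 to 0.0041 and Itgb8 −0.41 to 0.016. They were Zyx −0.094 to 0.013, Actn1 −0.028 to 0.089, Lims2 −0.047 to 0.12, Ptk2 −0.19 to 0.11, Ptk2b −0.018 to 0.11, Src −0.077 to 0.0026, Fyn −0.14 to 0.0051, Cdc42 −0.042 to 0.0074 and Rock2 −0.088 to 0.020. None of these had an adjusted p under 0.05 where the sign turned. Signal near background limits Itga2, Itga4, Itga8 and Parvb, and Itga5, Itgb6, Itgb8 and Fermt1 were dim on every array.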
